A study of Mus musculus with 18 samples.

Results

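The immediate early and NF-kB feedback genes described here are 10 genes of the mouse, Fos, Fosb, Jun, Junb, Atf3, Egr1, Egr2, Nfkbia, Tnfaip3 and Ier3, out of 49315 genes counted in each library. They were chosen by symbol, matched to the Ensembl identifiers of the counted genes, and all 10 had enough counts to be tested in each comparison. RNA was sequenced from bone marrow-derived macrophages (BMDMs), which are macrophages grown from marrow in medium conditioned by L929 cells. The marrow came from HDAC3 f/f mice, in which a part of the histone deacetylase gene Hdac3 is flanked by loxP sites, or from M-HDAC3-/- mice, which carry the same floxed gene and also a Cre recombinase driven from the lysozyme 2 locus. All animals were on the C57BL/6J background, and the sample labels call the genotypes WT and HDAC3 KO. Macrophages of each genotype had no treatment or spent 45 min in coculture with K562 cells, a human leukemia line, after which they were washed and held for another 5 h. Apoptotic cells (ACs) were K562 cells exposed to UV-B for 15 min and used 2 h later, and non-apoptotic cells (NACs) were K562 cells without this exposure. There were 3 libraries in each of the 6 groups, 18 in all, described as biological replicates.

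Immediate early genes are switched on by signals without the need for newly made protein, and their transcripts are short-lived. FOS, FOSB, JUN, JUNB and ATF3 are basic leucine zipper proteins that pair to form AP-1 and related transcription factors, while EGR1 and EGR2 are zinc finger factors. NF-kB is held in the cytoplasm by the inhibitor IkB-alpha, the product of Nfkbia, and it switches on its own brakes, among them Nfkbia and Tnfaip3, which encodes the ubiquitin-editing enzyme A20. Ier3 encodes a small stress-induced protein involved in cell survival. In macrophages these genes are best known for brief responses to microbial products, growth factors and stress.

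The promoters of 5 members are shown because the results turn on Jun, Junb and Egr2, which differed together between treatments in libraries labelled HDAC3-/-, and because Nfkbia and Tnfaip3 are the classical feedback targets of NF-kB. The sequences are the 250 bases upstream of the most upstream start in the RefSeq promoter table (GRCm38.p6), which held 9 of the 10 members and not Egr1. Capitals mark matches, on either strand, to the AP-1 motif TGANTCA, the CRE-like motif TGACNTCA, the kappaB motif GGGNNTTTCC, the EGR motif GCGNGGGCG, the TATA motif TATAAA or the CArG box. The windows are chr4:95052223-95052472 (reverse strand) for Jun, chr8:84978749-84978998 (reverse) for Junb, chr10:67535249-67535498 (forward) for Egr2, chr12:55492648-55492897 (reverse) for Nfkbia and chr10:19015411-19015660 (reverse) for Tnfaip3.
Jun: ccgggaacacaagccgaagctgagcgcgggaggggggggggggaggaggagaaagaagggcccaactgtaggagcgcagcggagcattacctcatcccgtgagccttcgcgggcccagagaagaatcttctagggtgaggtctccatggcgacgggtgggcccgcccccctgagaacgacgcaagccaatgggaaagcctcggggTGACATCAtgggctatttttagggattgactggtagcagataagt
Junb: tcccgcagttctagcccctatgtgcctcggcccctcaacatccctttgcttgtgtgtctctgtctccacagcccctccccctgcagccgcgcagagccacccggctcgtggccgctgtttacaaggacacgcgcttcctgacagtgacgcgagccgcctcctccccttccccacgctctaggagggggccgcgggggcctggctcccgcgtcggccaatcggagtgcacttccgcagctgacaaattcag
Egr2: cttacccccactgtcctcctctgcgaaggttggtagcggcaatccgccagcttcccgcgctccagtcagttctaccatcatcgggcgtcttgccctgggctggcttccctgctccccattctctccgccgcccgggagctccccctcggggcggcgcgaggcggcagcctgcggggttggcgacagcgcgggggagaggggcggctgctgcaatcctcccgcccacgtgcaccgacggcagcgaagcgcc
Nfkbia: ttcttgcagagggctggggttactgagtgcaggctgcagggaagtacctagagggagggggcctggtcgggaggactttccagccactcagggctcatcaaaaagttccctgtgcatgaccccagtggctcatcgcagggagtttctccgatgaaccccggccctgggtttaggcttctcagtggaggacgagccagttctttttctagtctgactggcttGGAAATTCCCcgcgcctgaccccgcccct
Tnfaip3: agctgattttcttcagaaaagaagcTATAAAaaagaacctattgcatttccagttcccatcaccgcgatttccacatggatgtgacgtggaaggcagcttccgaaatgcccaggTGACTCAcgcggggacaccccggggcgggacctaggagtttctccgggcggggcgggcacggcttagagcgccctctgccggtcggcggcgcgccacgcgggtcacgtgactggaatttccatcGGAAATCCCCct

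Over the whole window of 250 bases before and 50 after the start, the kappaB motif was matched in the promoters of Nfkbia and Tnfaip3 and in no other member with a sequence, against 1.61% of 32544 promoters in the table. The wider kappaB letters GGGNNNNNCC, not marked above, were matched in 8 of the 9 members with a sequence, all but Junb (51.0% of all promoters). Of the 9 members with a sequence, the AP-1 motif was matched in Tnfaip3 alone (7.79% of all promoters), the CRE-like motif in Jun alone (8.62%) and the EGR motif in Fosb alone (5.60%). The TATA motif was matched in Fos, Junb, Nfkbia and Tnfaip3 (13.6% of all promoters), and the CArG box in none of the 9 (1.64%). Relative to the start, the TATA matches began at -33 in Fos and -225 in Tnfaip3. They began at +1 in Junb and +20 in Nfkbia, after the upstream bases shown. In the upstream bases of Junb and Egr2 shown here, none of the motifs marked by capitals occurred. A match of letters is a description and not a measured binding site.

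Total counts ranged from 4704491 to 26421267 per library, and the smallest library was HDAC3-/- untreated replicate 1. The transcript of Hdac3 itself did not separate the genotypes, with 3.38 to 48.8 CPM in libraries labelled HDAC3 f/f and 4.66 to 74.6 CPM in those labelled HDAC3-/-. The counts cover the whole gene and not the deleted part alone, so the libraries are named by their labels throughout. Only 3 of the 18 libraries had their nearest neighbour, over all genes, within their own group. HDAC3 f/f untreated replicates 1 and 2 were nearest to HDAC3-/- NACs libraries. HDAC3-/- NACs replicates 2 and 3 were nearest to HDAC3 f/f untreated replicate 3. Likewise HDAC3 f/f NACs replicates 1 and 3 were nearest to HDAC3-/- untreated replicate 2. In turn HDAC3-/- untreated replicates 1 and 2 were nearest to HDAC3 f/f NACs replicate 3. The other untreated and NACs libraries did not pair across both labels. The GC slope of a library, the change in its log2 CPM per 10 percentage points of a gene's GC content relative to the mean of all libraries, ran from -0.72 to -0.38 in HDAC3 f/f untreated libraries and from 0.17 to 0.88 in HDAC3-/- untreated libraries. With NACs the slopes went the other way, from -0.18 to 0.43 and from -0.49 to -0.25. Among the marker lists, 10 macrophage genes summed to between 13530 and 27900 CPM and 10 granulocyte genes to between 227 and 1272 CPM. The B cell, T cell and dendritic cell lists stayed at or below 19.5, 1.59 and 2.86 CPM. Erythroid genes reached 44.3 CPM in 1 HDAC3 f/f library with ACs. In bulk RNA, fewer cells of a type and less RNA per cell cannot be told apart.

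The members differed widely in level. CPM express a count relative to the TMM-scaled total of its library, and only CPM per kb of counted gene length compare one gene with another. In HDAC3 f/f untreated libraries Nfkbia (chromosome 12 of GRCm38, 55489411 to 55492647) stood highest at 93.4 ± 8.73 CPM per kb (SD, n = 3), followed by the stress-induced factor Atf3 (chromosome 1, 191170296 to 191218039) at 86.8 ± 8.36 and Junb (chromosome 8, 84974484 to 84978718) at 48.8 ± 3.21. Fos (chromosome 12, 85473890 to 85477273) had 24.1, Jun (chromosome 4, 95049034 to 95052222) 15.0 and Ier3 (chromosome 17, 35821684 to 35822923) 14.8 CPM per kb. Tnfaip3 (chromosome 10, 19000910 to 19015657) had 2.55, Egr1 (chromosome 18, 34859823 to 34864984) 1.85, Egr2 (chromosome 10, 67535475 to 67542188) 1.71 and Fosb (chromosome 7, 19302696 to 19310051) 0.163 CPM per kb. In HDAC3-/- libraries with ACs the order at the top was Atf3 at 192 ± 24.2, Junb at 139 ± 26.6 and Nfkbia at 78.9 ± 18.0 CPM per kb. Counts ran from 5 to 155 per library for Fosb and from 3 to 654 for Egr2, and the lowest of them carry a wide counting error. The GC content of the transcripts ran from 48.3% in Tnfaip3 to 62.7% in Junb.

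**Figure D1:**
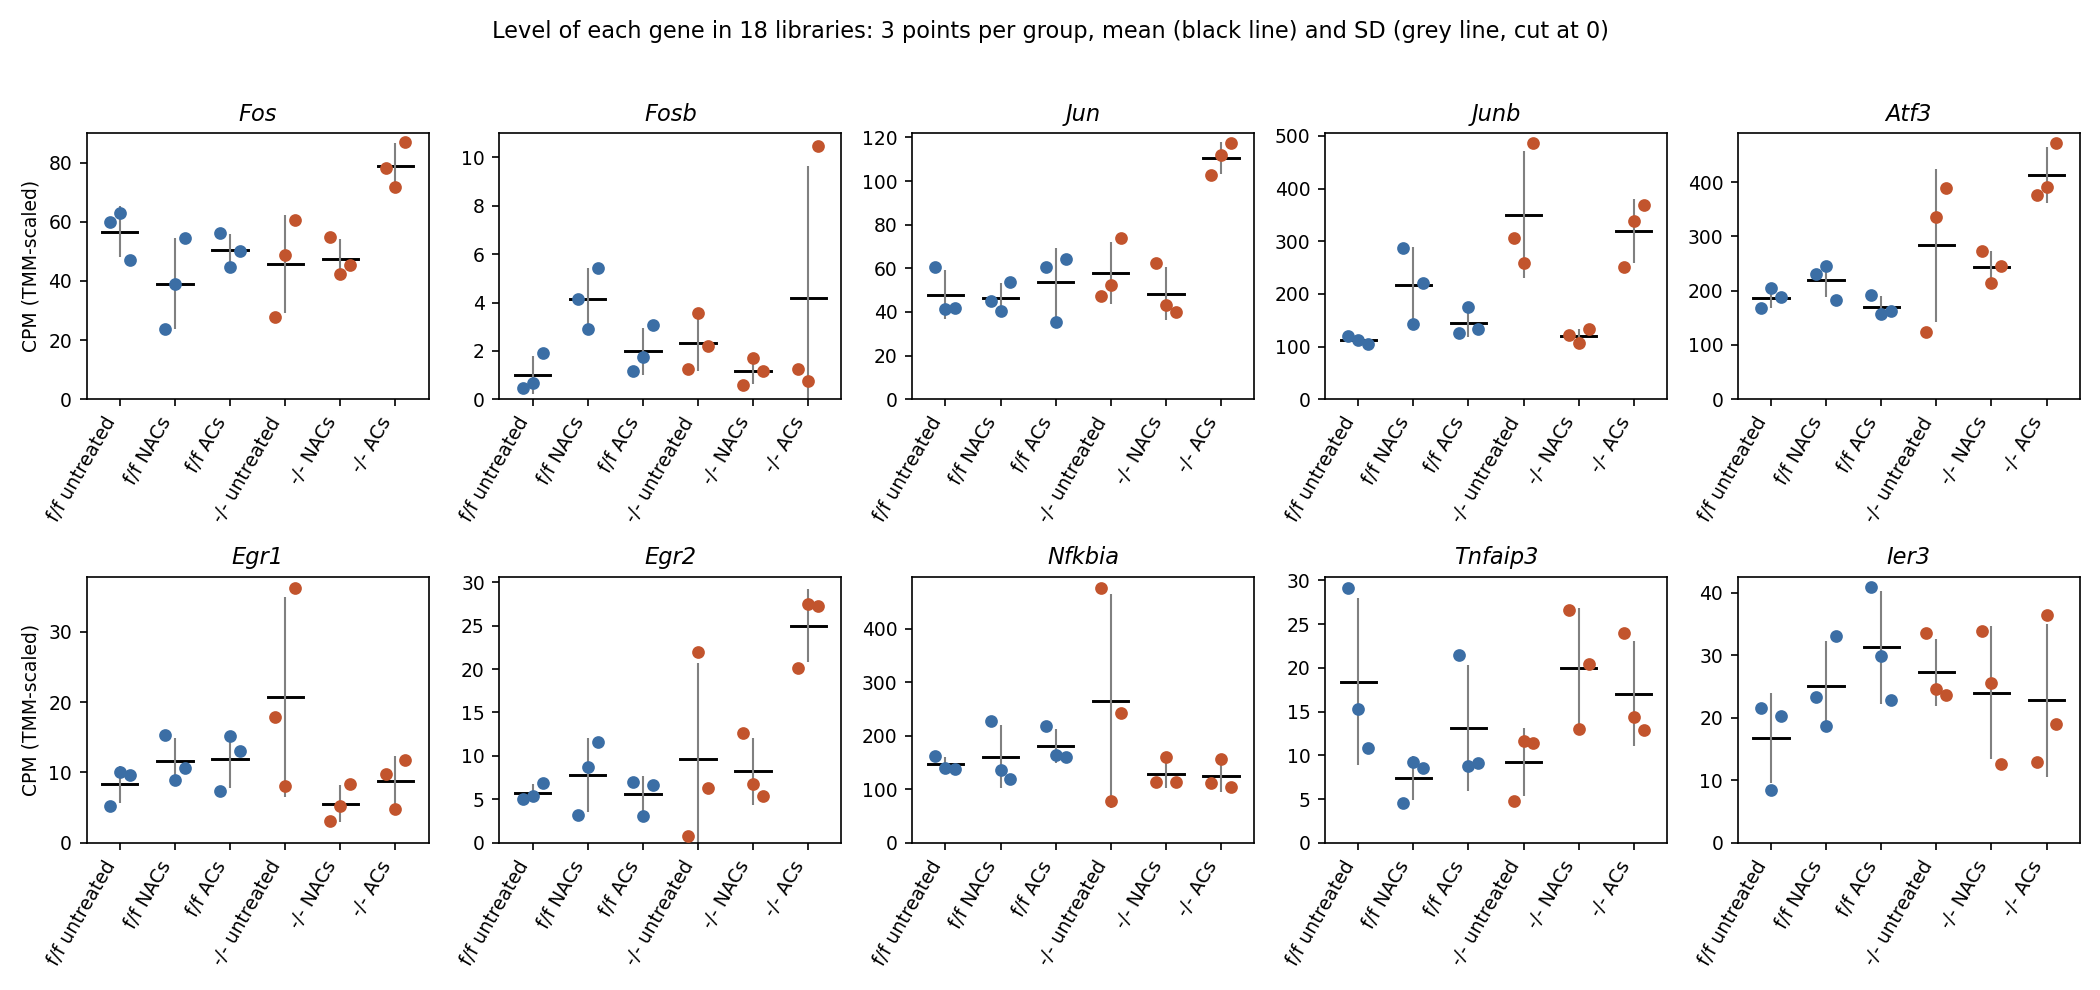
CPM of the 10 genes in each of 18 libraries, on a linear axis that starts at 0. Each point is 1 library (blue, labelled HDAC3 f/f; orange, labelled HDAC3-/-), the black line is the mean and the grey line the SD of 3 libraries. The HDAC3-/- libraries with ACs stand above every other library for Fos and Jun.

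The comparison of HDAC3-/- and HDAC3 f/f macrophages given ACs asks which genes differ by genotype label after coculture with dying cells. The authors acknowledge that unequal engulfment by the genotypes may have skewed the sequencing results. They aligned reads to the mouse genome alone to minimize signal from ingested K562 RNA. How many ACs were engulfed in each of these cultures is not given. Egr2 rose 4.37-fold and was the only member called. Atf3, Junb and Jun had higher values that missed the threshold, and the NF-kB inhibitor gene Nfkbia was lower in each HDAC3-/- library than in any HDAC3 f/f library. In all, 7 of 10 members had a higher fitted level and 3 a lower one, with a median log2 fold change (log2FC) of 0.78, beside -0.01 over all genes tested. By edgeR's quasi-likelihood test 1 of 10 members had an adjusted p under 0.05, where 3.75% of 12304 genes did, and 0.788% of genes were called higher. The groups did not overlap for 6 members, 5 of them higher, against 28.3% of all genes.

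Egr2, a zinc finger factor of macrophage activation and nerve development, had 7.0, 3.1 and 6.6 CPM in the HDAC3 f/f libraries with ACs. Its values under the label HDAC3-/- were 20.1, 27.5 and 27.2 CPM. Every HDAC3-/- library was thus well above the highest HDAC3 f/f library. The log2FC was 2.13 (SE 0.457, adjusted p = 0.0240, edgeR). Corrected for GC content and gene length by an offset, it was 1.95 (adjusted p = 0.0220, edgeR). The call was lost without HDAC3-/- replicate 1 (log2FC 2.29, adjusted p = 0.313, edgeR), when 0 of all genes were called, and it held without any other single library (0.0098 to 0.0460). A single fit of all 18 libraries gave an adjusted p of 0.0604 (edgeR), and the offset together with the replicate number as a block gave 0.0576 (edgeR), so the call was lost under both. In the single fit Atf3 was the member called (1.28, adjusted p = 0.0451, edgeR).

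With ACs, Atf3 had 192.6, 157.7 and 161.9 CPM in HDAC3 f/f libraries and 376.0, 391.6 and 473.0 CPM in HDAC3-/- libraries. Its log2FC was 1.22 (SE 0.386, adjusted p = 0.0733, edgeR). Junb, a partner in AP-1 dimers, had 126.2, 174.7 and 134.2 CPM against 251.7, 338.8 and 369.4 CPM, a log2FC of 1.09 (SE 0.395, adjusted p = 0.106, edgeR). Both pairs of groups were apart, by a gap wider than the spread within either group for Atf3. With the GC and length offset both passed, Atf3 at 1.09 (adjusted p = 0.0247, edgeR) and Junb at 1.69 (adjusted p = 0.0114, edgeR). Jun, the central AP-1 subunit, had 60.8, 35.5 and 64.3 CPM against 102.8, 111.7 and 117.2 CPM, a log2FC of 1.00 (SE 0.392, adjusted p = 0.126, edgeR). DESeq2's Wald test called 4 members here, Egr2, Atf3 (adjusted p = 0.00935), Junb (0.0326) and Jun (0.0495), where it called 1365 of 13024 genes.

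Fos had 56.1, 44.9 and 50.0 CPM in HDAC3 f/f and 78.2, 71.7 and 86.9 CPM in HDAC3-/- libraries with ACs. The groups were apart, and the log2FC of 0.60 (SE 0.374) had an adjusted p of 0.335 by edgeR. Nfkbia went the other way, with 218.1, 164.1 and 161.4 CPM against 112.3, 156.9 and 104.1 CPM, a log2FC of -0.58 (SE 0.394, adjusted p = 0.371, edgeR). The lowest HDAC3 f/f library exceeded the highest HDAC3-/- library by less than 5 CPM. Tnfaip3, Ier3, Egr1 and Fosb overlapped between the labels, with log2FCs from -0.51 to 0.96. The mean of Fosb rested on a single library, with 10.5 CPM in HDAC3-/- replicate 3 beside 1.27 and 0.757 CPM in the others. The mitochondrial share of counts was 0.493 to 1.19% in these HDAC3-/- libraries and 0.341 to 0.480% in the HDAC3 f/f libraries. The macrophage genes summed to 19260 to 24410 and 13530 to 16120 CPM in the same order. Total counts were higher in the HDAC3-/- libraries too, 18495507 to 22664522 against 9385094 to 14929827, and so was the length slope, the change in log2 CPM per doubling of gene length, at 0.0456 to 0.24 against -0.103 to 0.0163. The part of these in the differences was not tested.

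**Figure D2:**
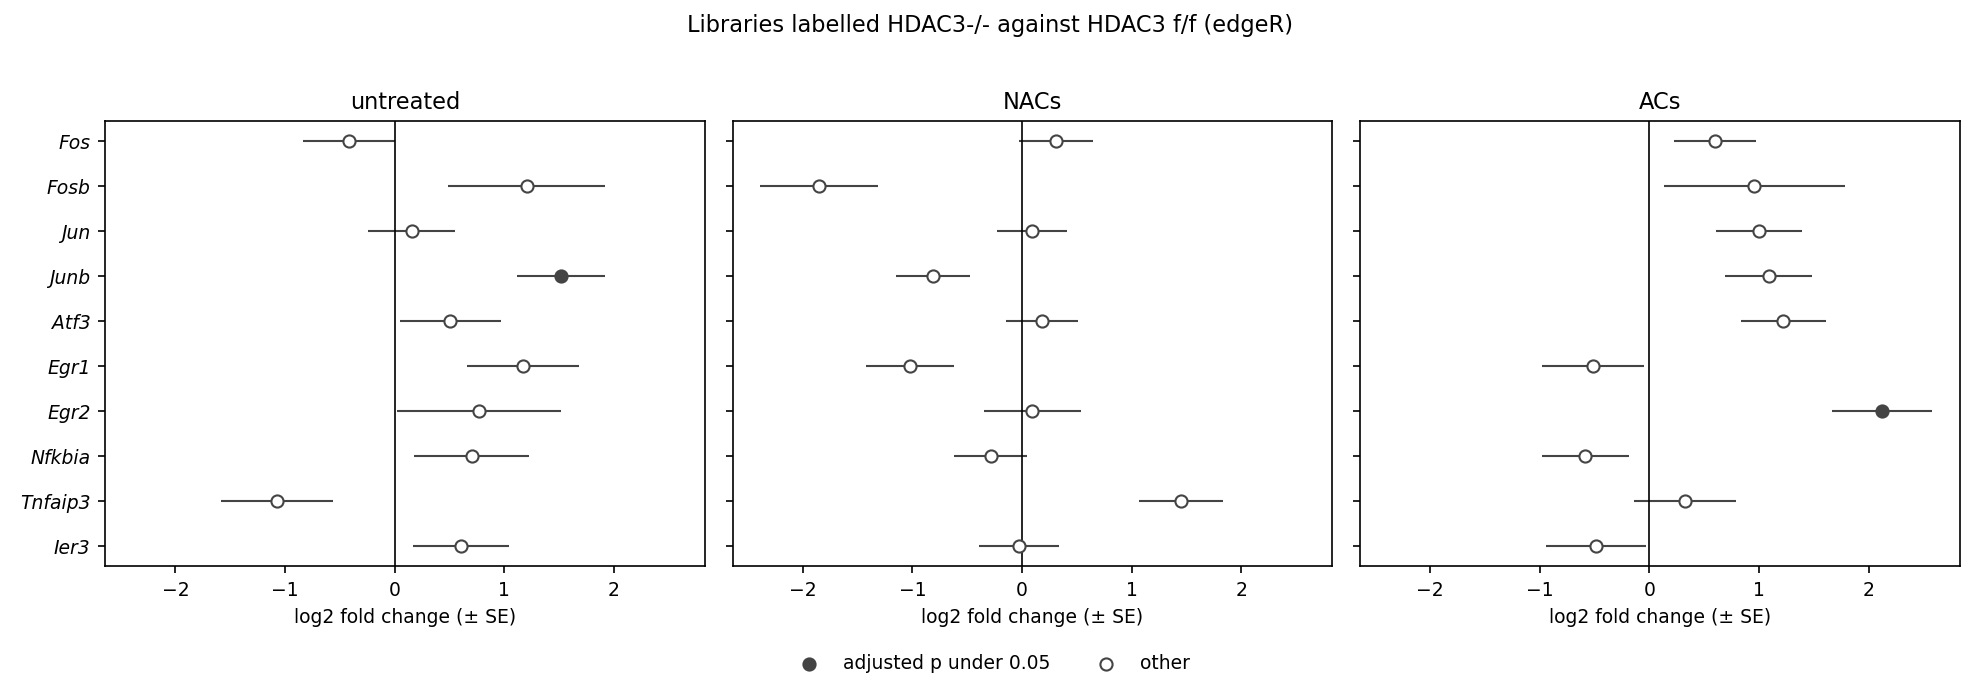
Log2 fold change of each gene in libraries labelled HDAC3-/- against HDAC3 f/f, with 1 SE on either side, from edgeR on 3 libraries per group; filled points have an adjusted p under 0.05. Only Junb passed in untreated macrophages, none with NACs and only Egr2 with ACs.

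The same genotype comparison was made in untreated macrophages. Junb was 2.86-fold higher under the label HDAC3-/-, and it was the only member called, where 11.6% of 12101 genes were called and 3.04% were called higher. The members' median log2FC was 0.66, beside 0.06 over all genes, and 8 of 10 were higher. Junb and Ier3 were apart, where 40.9% of all genes were. Junb had 119.9, 111.8 and 105.2 CPM in HDAC3 f/f and 306.4, 259.5 and 486.2 CPM in HDAC3-/- untreated libraries, with no overlap. Its log2FC was 1.52 (SE 0.401, adjusted p = 0.0353, edgeR). The difference was 0.67 with the GC and length offset (adjusted p = 0.399, edgeR), beside the opposite GC slopes of these groups given above. It held without HDAC3-/- replicate 1 (adjusted p = 0.000543, edgeR), and leaving out any other single library lost it. The adjusted p was 0.132, 0.155 and 0.0901 without HDAC3 f/f replicates 1, 2 and 3, by edgeR, when 78, 0 and 0 of all genes were called. It was 0.0711 and 0.101 without HDAC3-/- replicates 2 and 3, when 246 and 0 of all genes were called. Scaling by library totals alone moved the median of all genes from 0.06 to -0.42 here, and under that scaling the log2FC of Junb was 1.05 and its call was lost (adjusted p = 0.0832, edgeR), as it was with the replicate block (1.49, adjusted p = 0.0562, edgeR). With library totals Tnfaip3 was called in its place, at -1.57 (adjusted p = 0.0494, edgeR). The mitochondrial share was 0.496 to 0.621% in the HDAC3 f/f and 0.272 to 0.434% in the HDAC3-/- untreated libraries. In the same order the B cell genes summed to 2.52 to 5.16 and 6.22 to 15.1 CPM. The macrophage gene Lyz2, whose locus drives the Cre, had 4530 to 13800 and 1480 to 3090 CPM. The macrophage genes Adgre1, Csf1r and Cd68 overlapped, as did the sum of the 10 macrophage genes (13710 to 23840 and 13960 to 27900 CPM). The part of these in the result was not tested.

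Other members were uneven among the HDAC3-/- untreated libraries. Nfkbia had 476.4, 79.0 and 241.8 CPM there, against 138.8 to 163.1 CPM in the HDAC3 f/f libraries. Egr2 had 0.755, 22 and 6.37 CPM, and the lowest of these rests on 3 counts in the smallest library. The HDAC3 f/f untreated libraries held 5.04 to 6.92 CPM of Egr2, so the HDAC3-/- values lay on both sides of them. Egr1, which responds to growth factor signalling, had 17.9, 8.1 and 36.1 CPM against 5.2, 10.1 and 9.6 CPM, a log2FC of 1.17 (SE 0.514, adjusted p = 0.118, edgeR), which was 0.50 with the GC and length offset (adjusted p = 0.599, edgeR). Without HDAC3-/- replicate 1, Egr1 at 1.23 (adjusted p = 0.0201, edgeR) and Egr2 at 1.14 (adjusted p = 0.0237, edgeR) were called as well, where 5887 of 12714 genes were called. Without HDAC3-/- replicate 3 Egr1 was at 0.53 (adjusted p = 0.458, edgeR). Ier3 did not overlap, with 33.5, 24.6 and 23.7 CPM against 21.5, 8.5 and 20.3 CPM and a log2FC of 0.61 (SE 0.440, adjusted p = 0.316, edgeR).

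With NACs no member differed between the genotype labels at an adjusted p under 0.05 by edgeR, where 0.864% of 11923 genes did. The count at an unadjusted p under 0.05 was 4 (24.2% of all genes), and DESeq2's Wald test called 2, where it called 469 of 11517 genes. The same 4 members were apart, where 27.0% of all genes were. Tnfaip3, the A20 gene, had 4.6, 9.2 and 8.5 CPM in HDAC3 f/f and 26.6, 13.0 and 20.4 CPM in HDAC3-/- libraries, a log2FC of 1.45 (SE 0.382, adjusted p = 0.0597, edgeR; 0.0209 by DESeq2). Fosb had 4.1, 2.9 and 5.4 CPM against 0.6, 1.7 and 1.2 CPM, a log2FC of -1.85 (SE 0.537, adjusted p = 0.0796, edgeR; 0.0346 by DESeq2). The groups were apart for both genes, in opposite directions. Junb had 286.6, 143.2 and 221.2 CPM against 122.1, 106.3 and 133.3 CPM, a log2FC of -0.81 (SE 0.336, adjusted p = 0.159, edgeR), which came to -0.01 with the GC and length offset. Egr1 had 15.4, 8.9 and 10.6 CPM against 3.2, 5.2 and 8.3 CPM, a log2FC of -1.02 (SE 0.402, adjusted p = 0.147, edgeR). Without HDAC3 f/f replicate 2 there were 3 calls, Fosb (adjusted p = 0.0203), Tnfaip3 (0.00996) and Junb (0.0254), where 3121 of 12663 genes were called, by edgeR. The mitochondrial share was 0.294 to 0.404% in the HDAC3 f/f and 0.409 to 0.577% in the HDAC3-/- libraries with NACs. In the same order the length slope was -0.157 to -0.0314 and -0.0235 to 0.0978, and the macrophage gene Adgre1 had 222 to 449 and 497 to 673 CPM. The macrophage genes Lyz2, Csf1r and Cd68 overlapped, as did the sum of the 10 macrophage genes (17320 to 26790 and 17270 to 25690 CPM). The part of these was not tested.

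The comparison of ACs with NACs asks what depends on the cells being apoptotic. In HDAC3-/- macrophages 3 AP-1 and EGR members rose with ACs, Egr2 3.04-fold, Junb 2.67-fold and Jun 2.30-fold, and Fos and Atf3 were apart in the same direction. Junb with ACs was not above its level in untreated HDAC3-/- macrophages, where it had 259.5 to 486.2 CPM. The call rate over all 12244 genes was 7.38%, and 2.65% were called higher. The 10 members had a median log2FC of 0.75, beside 0.09 over all genes, and 5 members against 14.6% of all genes had every ACs library above every NACs library. The HDAC3-/- ACs libraries also serve in the genotype comparison above, so these sets of values are not independent.

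Junb had 122.1, 106.3 and 133.3 CPM with NACs and 251.7, 338.8 and 369.4 CPM with ACs under the label HDAC3-/-. The lowest ACs library was well above the highest NACs library. The log2FC was 1.42 (SE 0.376, adjusted p = 0.0212, edgeR), and it held under each of the 9 alternatives that kept every library, with adjusted p from 0.0015 to 0.0402 and a value of 1.32 with the GC and length offset. It was lost without HDAC3-/- NACs replicate 1 (0.0876), 2 (0.140) or 3 (0.0729) or without HDAC3-/- ACs replicate 1 (0.125), by edgeR.

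Egr2 had 12.6, 6.8 and 5.4 CPM with NACs and 20.1, 27.5 and 27.2 CPM with ACs in HDAC3-/- macrophages. Its log2FC was 1.60 (SE 0.421, adjusted p = 0.0204, edgeR). The value was 1.27 with the GC and length offset (adjusted p = 0.0720, edgeR), and the call was also lost with scaling by library totals (0.0620) and in a single fit of all libraries (0.174). The call was lost without NACs replicate 2 (0.134) or 3 (0.153) and without ACs replicate 1 (0.132) or 3 (0.0640), by edgeR. Jun had 62.2, 43.2 and 39.8 CPM with NACs and 102.8, 111.7 and 117.2 CPM with ACs, a log2FC of 1.20 (SE 0.372, adjusted p = 0.0452, edgeR). The value was 0.92 with the offset (adjusted p = 0.0940, edgeR), and the call was lost under 6 of 9 alternatives that kept every library. Of the single libraries left out, ACs replicate 2 alone left Jun called (0.0103), and the adjusted p was 0.0863, 0.223 and 0.244 without NACs replicates 1, 2 and 3 and 0.164 and 0.0666 without ACs replicates 1 and 3, by edgeR.

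Fos had 55.0, 42.2 and 45.4 CPM with NACs and 78.2, 71.7 and 86.9 CPM with ACs in HDAC3-/- macrophages, a log2FC of 0.74 (SE 0.364, adjusted p = 0.200, edgeR). Atf3 had 272.9, 215.0 and 245.8 CPM against 376.0, 391.6 and 473.0 CPM, a log2FC of 0.77 (SE 0.369, adjusted p = 0.189, edgeR). All ACs values of both genes lay above the NACs values. The NF-kB feedback members stayed close to 0 in this comparison, with the 3 members that had lower fitted levels no further than -0.22. Nfkbia had 113.0 to 161.4 CPM with NACs and 104.1 to 156.9 CPM with ACs, and Tnfaip3 had 13.0 to 26.6 and 12.9 to 23.9 CPM. The 6 fibroblast marker genes, all detected, summed to 75.7 to 222 CPM in these ACs libraries and to 7.22 to 42.7 CPM in the NACs libraries, and their part in the result was not tested.

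In HDAC3 f/f macrophages no member differed between ACs and NACs by edgeR, 0 had an unadjusted p under 0.05 (4.16% of all genes), and DESeq2 called none, where it called 0 of 25305 genes. The smallest adjusted p was 0.898, and 0.0% of all 11844 genes were called. Log2 fold changes ran from -1.03 to 0.85, and no member's groups were apart, where 10.4% of all genes were. Junb had 143.2 to 286.6 CPM with NACs and 126.2 to 174.7 CPM with ACs. The difference between the genotypes was itself tested as an interaction, and no member passed, where 0.0765% of 13076 genes did. There were 5 members with an unadjusted p under 0.05 (20.0% of all genes), and DESeq2 called Junb and Egr2, where it called 741 of 12736 genes. The interaction was 1.99 for Junb (SE 0.483, adjusted p = 0.0583, edgeR; 0.0042 by DESeq2) and 2.10 for Egr2 (SE 0.651, adjusted p = 0.0982, edgeR; 0.0406 by DESeq2). For Fosb it was 2.92 (SE 1.06, adjusted p = 0.144), for Atf3 1.12 (SE 0.443, adjusted p = 0.169) and for Jun 0.98 (SE 0.466, adjusted p = 0.243), all by edgeR. For Junb the value was 1.68 with the GC and length offset (adjusted p = 0.0462, edgeR), and the call appeared on leaving out HDAC3 f/f NACs replicate 2 (0.0171), HDAC3 f/f ACs replicate 2 (0.0471) or HDAC3-/- ACs replicate 2 (0.0359). The value of Fosb rested on HDAC3-/- ACs replicate 3, without which it was 0.78 (adjusted p = 0.667, edgeR), and it was 3.42 without replicate 2 of that group (adjusted p = 0.0404, edgeR).

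**Figure D3:**
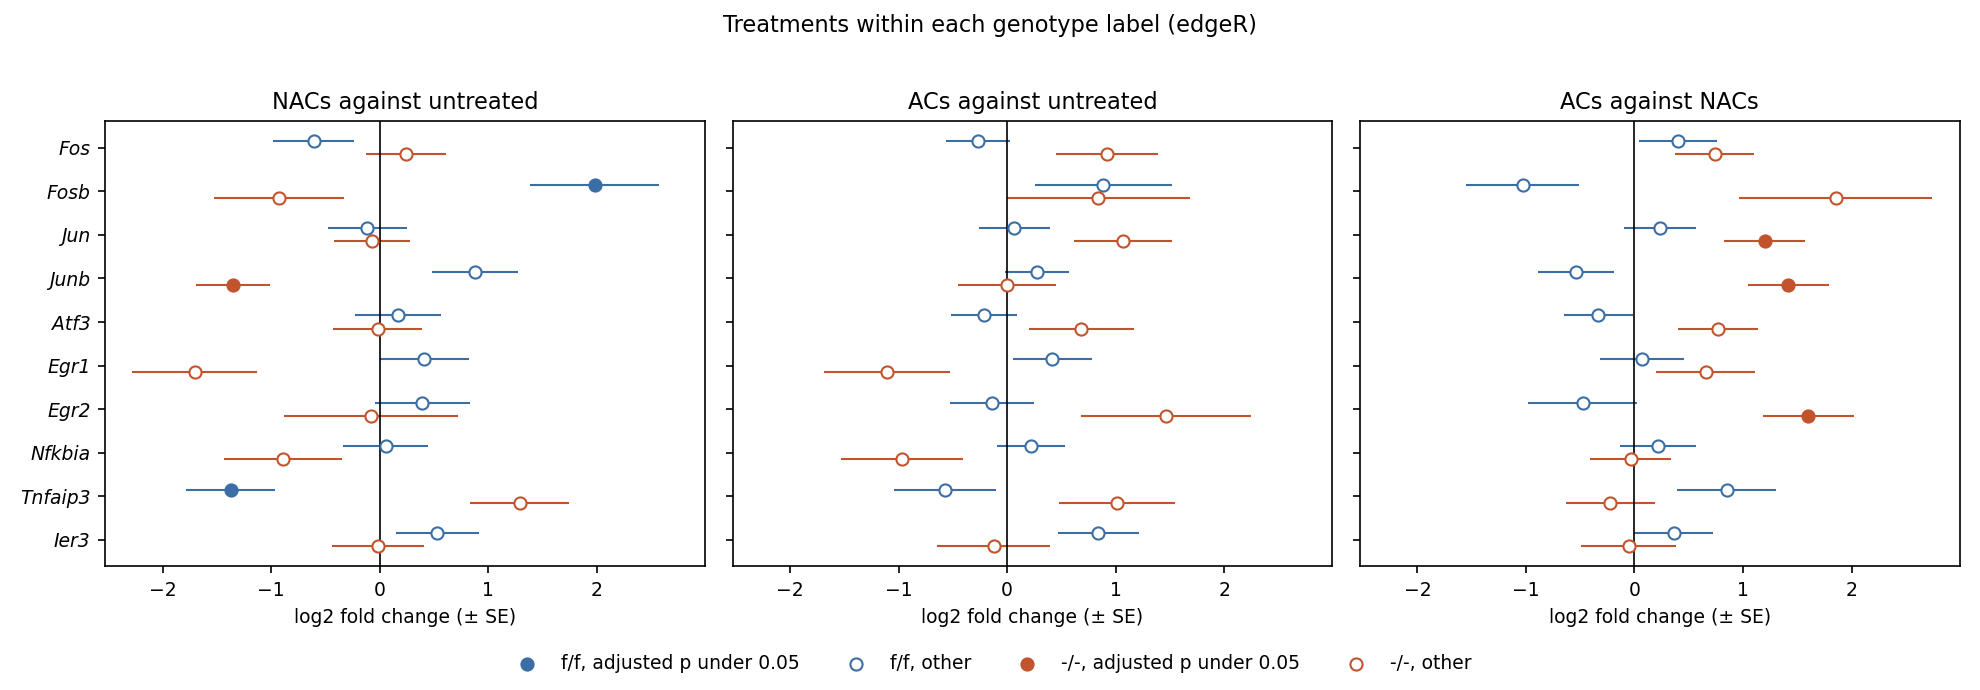
Log2 fold change of each gene between treatments, with 1 SE on either side, in libraries labelled HDAC3 f/f (blue) and HDAC3-/- (orange), from edgeR on 3 libraries per group; filled points have an adjusted p under 0.05. The comparisons share libraries. With ACs against NACs, Jun, Junb and Egr2 passed under the label HDAC3-/- and none under HDAC3 f/f.

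NACs against no treatment asks what contact with living cells does. In HDAC3 f/f macrophages Fosb rose 3.95-fold and Tnfaip3 fell 2.59-fold, and these 2 were called where 8.52% of 11912 genes were. Fosb had 0.464, 0.672 and 1.92 CPM untreated and 4.15, 2.90 and 5.41 CPM with NACs, from 7 to 87 counts. Its log2FC was 1.98 (SE 0.591, adjusted p = 0.0322, edgeR). Tnfaip3 had 29.2, 15.3 and 10.9 CPM untreated and 4.6, 9.2 and 8.5 CPM with NACs, a log2FC of -1.37 (SE 0.409, adjusted p = 0.0322, edgeR). Neither gene overlapped between the groups, and 29.7% of all genes were apart in this way. With the GC and length offset the values were 1.48 for Fosb (adjusted p = 0.186, edgeR) and -0.89 for Tnfaip3 (adjusted p = 0.221, edgeR). Scaling by library totals (0.109 and 0.0727) and a single fit of all libraries (0.152 and 0.145) also ended both calls. Both calls were lost without HDAC3 f/f untreated replicate 1 (Fosb 0.205, Tnfaip3 0.305) or 2 (0.162 and 0.111), and without NACs replicate 1 (0.159 and 0.208) or 3 (0.176 and 0.113). Without untreated replicate 1 the log2FC of Tnfaip3 was -0.87. The mitochondrial share was 0.496 to 0.621% untreated and 0.294 to 0.404% with NACs, and the B cell genes summed to 2.52 to 5.16 and 5.27 to 19.5 CPM. Their part in the result was not tested. Junb was apart as well, with 105.2 to 119.9 CPM untreated and 143.2 to 286.6 CPM with NACs and a log2FC of 0.88 (SE 0.396, adjusted p = 0.110, edgeR), which was -0.046 with the offset. It was called without NACs replicate 2 (1.14, adjusted p = 0.0194, edgeR) and by DESeq2 (0.96, adjusted p = 0.0411). DESeq2 called Tnfaip3 too and gave Fosb no adjusted p.

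In HDAC3-/- macrophages the same treatment went with lower Junb. Junb fell 2.56-fold, from 306.4, 259.5 and 486.2 CPM untreated to 122.1, 106.3 and 133.3 CPM with NACs, and was the only member called, where 6.54% of 12143 genes were called and 0.338% were called lower. Its log2FC was -1.35 (SE 0.340, adjusted p = 0.0466, edgeR), and -0.72 with the GC and length offset (adjusted p = 0.367, edgeR). It was lost with the replicate block (0.0976) and with scaling by DESeq2's size factors (0.0624) or library totals (0.0795) as well, and Tnfaip3 was called under the last of these (1.62, adjusted p = 0.0307, edgeR). The call held without untreated replicate 1 (0.00478, edgeR), when 4441 of 12493 genes were called. It was lost without untreated replicate 2 (0.0869) or 3 (0.0959) or NACs replicate 1 (0.231), 2 (0.145) or 3 (0.162), by edgeR. In each of the fits that lost it, 0 of all genes were called. Egr1 had 17.9, 8.1 and 36.1 CPM untreated and 3.2, 5.2 and 8.3 CPM with NACs, a log2FC of -1.70 (SE 0.575, adjusted p = 0.0891, edgeR), and it was called without untreated replicate 1 (-1.77, adjusted p = 0.0359, edgeR) and was -1.10 without untreated replicate 3 (adjusted p = 0.194, edgeR). Junb and Tnfaip3 were apart, where 38.7% of all genes were. Tnfaip3 went in the other direction, from 4.8, 11.6 and 11.4 CPM to 26.6, 13.0 and 20.4 CPM, a log2FC of 1.29 (SE 0.456, adjusted p = 0.100, edgeR), which was 0.64 with the GC and length offset (adjusted p = 0.433, edgeR). The fibroblast genes summed to 67.6 to 102 CPM untreated and 7.22 to 42.7 CPM with NACs. In the same order the B cell genes summed to 6.22 to 15.1 and 1.82 to 5.28 CPM, and Lyz2 had 1480 to 3090 and 5130 to 12900 CPM. Adgre1, Csf1r and Cd68 overlapped, as did the sum of the 10 macrophage genes (13960 to 27900 and 17270 to 25690 CPM). The part of these in the result was not tested.

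The fitted NACs differences had opposite signs under the 2 genotype labels for Fosb, Junb, Egr1 and Tnfaip3. Those of Fosb in HDAC3-/- macrophages (-0.93, adjusted p = 0.308, edgeR) and of Egr1 in HDAC3 f/f macrophages (0.41, adjusted p = 0.473, edgeR) were not called, and with the GC and length offset Junb was below 0 under both labels. As a test of whether the differences were of equal size, the interaction of genotype with NACs against untreated was -2.81 for Fosb (SE 0.857, adjusted p = 0.0159), -2.11 for Junb (SE 0.505, adjusted p = 0.00443), -2.00 for Egr1 (SE 0.695, adjusted p = 0.0307) and 2.79 for Tnfaip3 (SE 0.666, adjusted p = 0.00432), all by edgeR on 12 libraries. These are 4 of 10 members, and 34.8% of 13005 genes passed the same test. Over all genes, most of these untreated and NACs libraries were nearest to a library of the other genotype and other treatment, as given above. The part of this in the interactions was not tested. None of these calls held with the GC and length offset, which gave -1.98 (adjusted p = 0.0912), -0.66 (0.408), -1.28 (0.184) and 1.57 (0.0826) for the genes in that order and called Fos in their place (1.85, adjusted p = 0.0287, edgeR). With scaling by library totals Fosb (-2.17, adjusted p = 0.0688, edgeR) and Egr1 (-1.33, adjusted p = 0.198, edgeR) were lost as well. Junb and Tnfaip3 stayed called without any single library. Fosb was lost without HDAC3-/- NACs replicate 1 (0.0515), and Egr1 without that library (0.0868), HDAC3 f/f untreated replicate 3 (0.0519), HDAC3 f/f NACs replicate 1 (0.0519) or HDAC3-/- untreated replicate 3 (0.0572), by edgeR.

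**Figure D4:**
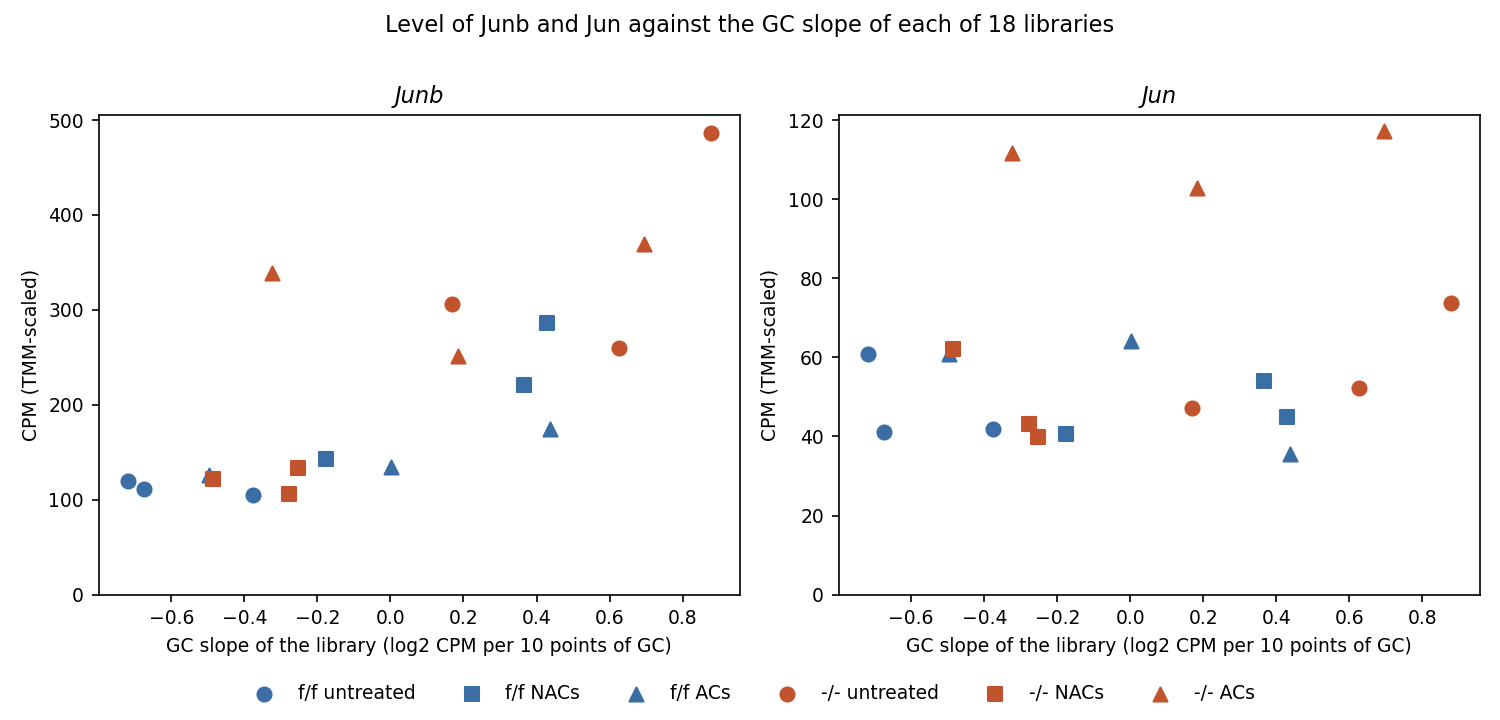
CPM of Junb and Jun in each of 18 libraries (vertical, from 0) against the GC slope of the library (horizontal, log2 CPM per 10 percentage points of GC); circles are untreated, squares NACs and triangles ACs libraries, blue labelled HDAC3 f/f and orange labelled HDAC3-/-. Libraries with slopes under -0.25 have 105.2 to 133.3 CPM of Junb except HDAC3-/- ACs replicate 2 at 338.8 CPM, and for Jun the 3 HDAC3-/- ACs libraries lie above the rest at each slope.

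ACs against no treatment gave no called member in either genotype by edgeR, and 0.0% of all genes were called in both. DESeq2 called 4 genes in HDAC3 f/f macrophages, none of them a member. In HDAC3-/- macrophages it gave an adjusted p to only 1203 genes, of which it called 13, and 3 members were among the 1203 and none among the 13, while Fos, Jun and Tnfaip3 had no adjusted p there. In HDAC3 f/f macrophages 1 member had an unadjusted p under 0.05 (12.7% of all genes), Ier3, with 21.5, 8.5 and 20.3 CPM untreated and 40.9, 29.9 and 22.9 CPM with ACs. Its log2FC was 0.84 (SE 0.377, adjusted p = 0.393, edgeR). The groups were apart by less than 2 CPM, and 15.5% of all genes were apart. Junb was also apart, with 105.2 to 119.9 and 126.2 to 174.7 CPM and a log2FC of 0.28 (SE 0.297, adjusted p = 0.632, edgeR), which was -0.41 with the GC and length offset. The mitochondrial share was 0.496 to 0.621% untreated and 0.341 to 0.480% with ACs under this label. In the same order the macrophage gene Adgre1 had 472 to 592 and 395 to 437 CPM. Lyz2, Csf1r and Cd68 overlapped, as did the sum of the 10 macrophage genes (13710 to 23840 and 13530 to 16120 CPM). The part of these values was not tested. In HDAC3-/- macrophages 1 member had an unadjusted p under 0.05 (14.5% of all genes), Jun, which had 47.3, 52.3 and 73.8 CPM untreated and 102.8, 111.7 and 117.2 CPM with ACs, a log2FC of 1.07 (SE 0.454, adjusted p = 0.317, edgeR). Fos had 27.9, 48.8 and 60.5 CPM against 78.2, 71.7 and 86.9 CPM, a log2FC of 0.92 (SE 0.471, adjusted p = 0.362, edgeR). Tnfaip3 had 4.8, 11.6 and 11.4 CPM against 23.9, 14.3 and 12.9 CPM, a log2FC of 1.01 (SE 0.536, adjusted p = 0.373, edgeR), which was 0.26 with the GC and length offset (adjusted p = 0.822, edgeR). All 3 genes were apart between the groups, where 21.5% of all genes were. The mitochondrial share was 0.272 to 0.434% untreated and 0.493 to 1.19% with ACs in these libraries. In the same order the length slope was -0.135 to 0.03 and 0.0456 to 0.24, and Lyz2 had 1480 to 3090 and 4060 to 10500 CPM. Adgre1, Csf1r and Cd68 overlapped, as did the sum of the 10 macrophage genes (13960 to 27900 and 19260 to 24410 CPM). The part of these was not tested. Junb overlapped, with 259.5 to 486.2 CPM untreated and 251.7 to 369.4 CPM with ACs. The interaction of genotype with ACs against untreated called 0 members by edgeR, where 0.0% of 13225 genes were called, and 0 by DESeq2, where 1249 of 9962 were. An unadjusted p under 0.05 was found for 1 member (24.1% of all genes). That member was Egr1, at -1.76 (SE 0.727, adjusted p = 0.159, edgeR).

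**Figure D5:**
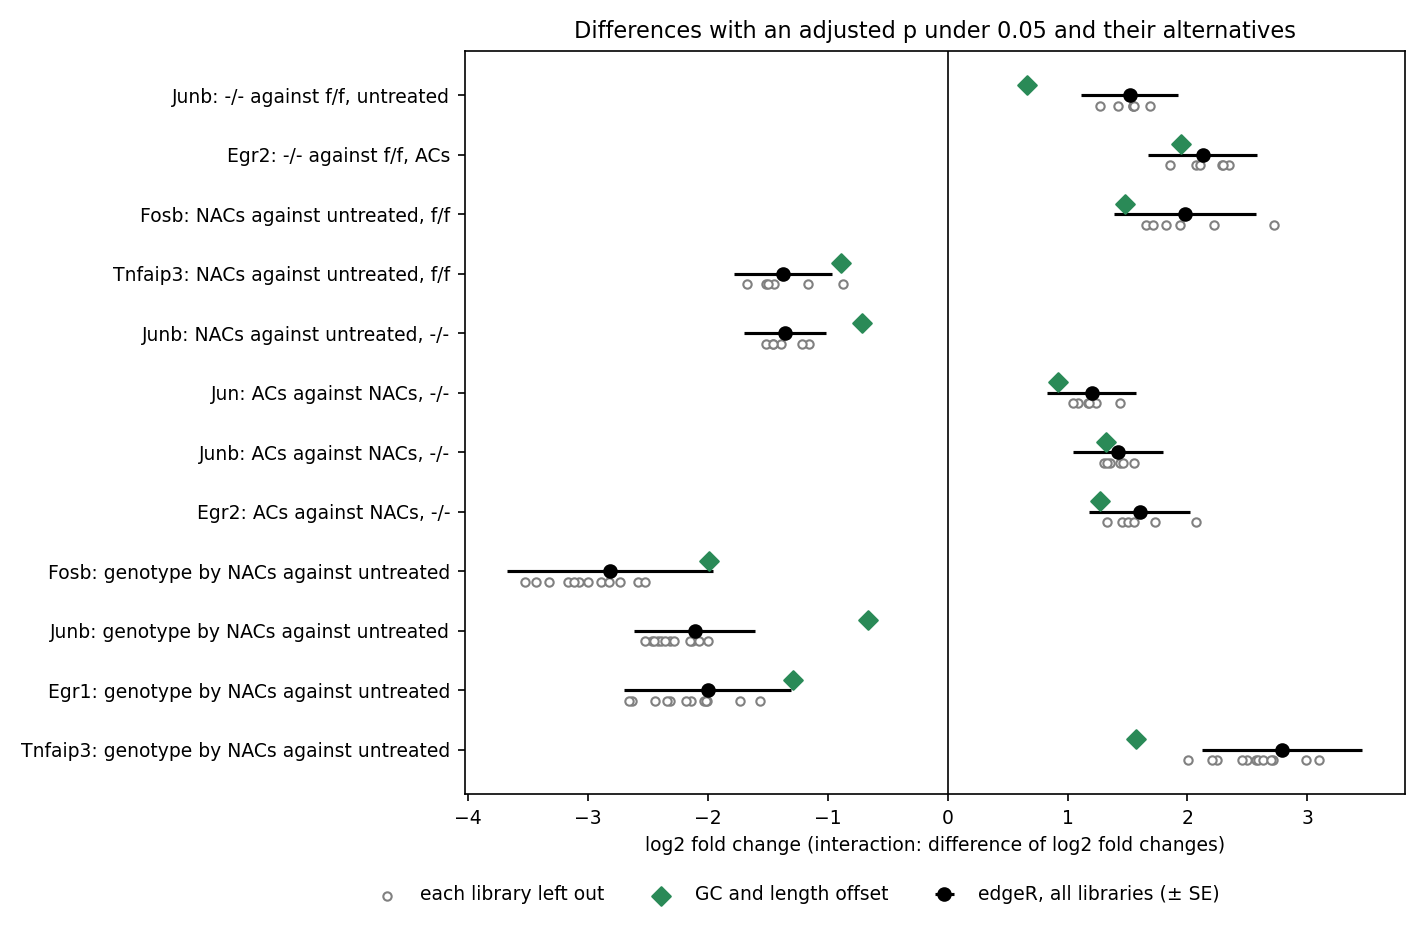
The 12 differences with an adjusted p under 0.05 (black, with 1 SE), each with its value on leaving out 1 library in turn (grey circles) and with the GC and length offset (green diamonds). All values keep their sign. The offset brings Junb in the untreated and NACs comparisons nearer to 0, and leaves Egr2 between genotypes with ACs, Jun, Junb and Egr2 with ACs against NACs, and both differences of Fosb within 1 SE.

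Ranked by mean CPM over the 6 groups, HDAC3-/- libraries with ACs stood first for Fos (78.9 ± 7.59 CPM), Jun (111 ± 7.29), Atf3 (414 ± 52.1), Egr2 (25.0 ± 4.19) and Fosb (4.17 ± 5.47), the last through the single library at 10.5 CPM. For Fos and Jun the next group, HDAC3 f/f untreated at 56.7 CPM and HDAC3-/- untreated at 57.8 CPM, did not overlap with it. Every other pair of neighbours in the order, for all 10 genes, overlapped. The share of all genes with a first group clear of the next is not given here, so these gaps are a description. HDAC3-/- untreated libraries stood first for Junb, Egr1 and Nfkbia, HDAC3-/- libraries with NACs for Tnfaip3 and HDAC3 f/f libraries with ACs for Ier3. The replicates were tightest for Jun in HDAC3-/- libraries with ACs and for Junb in HDAC3 f/f untreated libraries, where the highest exceeded the lowest 1.14-fold, and widest for Egr2 in HDAC3-/- untreated libraries, 29.1-fold.

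Across the 18 libraries, which share groups, depth and GC slopes, the members did not all vary together. Pearson correlations of log2 CPM were highest for Atf3 with Egr2 (0.79), Fos with Egr2 (0.73) and Fos with Jun (0.71). They were lowest for Egr2 with Nfkbia (-0.79), Egr1 with Tnfaip3 (-0.62) and Fosb with Tnfaip3 (-0.56). The mean z-score of the 10 members was highest in the HDAC3-/- ACs libraries (0.46, 0.62 and 0.96) and in HDAC3-/- untreated replicate 3 (0.80). Outside the list, the genes whose log2 CPM followed this mean most closely over the 18 libraries were Tmem206 (r = 0.92), Gas7 (0.91), Zfand3 (0.91), Ghdc (0.90) and Cerk (0.90), given as a description.

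The wider immediate early list held 27 other genes. With ACs, 0 of 25 tested passed between the genotype labels by edgeR, and 3 of them had an unadjusted p under 0.05, where 24.3% of all genes did. With NACs 0 of 25 passed, where 0.864% of all genes did, 19 were lower, and the median was -0.53 beside -0.0031 over all genes. Of these 25, 10 had an unadjusted p under 0.05, where 24.2% of all genes did. In untreated macrophages 2 of 24 were higher under the label HDAC3-/-, where 3.04% of all genes were called higher and 11.6% in either direction. These were Srf (73.2 ± 8.63 against 22.5 ± 9.73 CPM, log2FC 1.62, adjusted p = 0.0333, edgeR), which encodes the factor that binds CArG boxes, and Ier2 (77.8 ± 30.4 against 26.6 ± 3.80 CPM, 1.43, adjusted p = 0.0439). With NACs in HDAC3 f/f macrophages 4 of 24 were called, where 8.52% of all genes were. Jund, Csrnp1 and Srf rose by 1.44, 1.27 and 1.16 on the log2 scale, and Zfp36l1, which encodes an mRNA decay factor, was 1.61 lower on that scale. In HDAC3-/- macrophages 0 of 25 passed with NACs against untreated, where 6.54% of all genes did, and the median was -0.59 beside -0.0334 over all genes. There 17 were lower and 11 had an unadjusted p under 0.05, as had 3690 of 12143 genes. With ACs against NACs in HDAC3-/- macrophages 1 of 25 rose, where 2.65% of all genes were called higher. This was the zinc finger factor gene Klf4 (10.8 ± 4.83 against 3.66 ± 0.645 CPM, 1.58, adjusted p = 0.0303, edgeR), which had nearly the same value with the GC and length offset but was not called (1.51, adjusted p = 0.0739, edgeR). The median of the list there was 0.49, beside 0.09 over all genes.

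The interaction of genotype with NACs against untreated called 11 of 25 genes of this list by edgeR, 3 of them positive and 8 negative, where 34.8% of all genes passed. Zfp36l1 (3.36, adjusted p = 0.00211), the phosphatase gene Dusp6 (2.30, adjusted p = 0.00888) and the kinase gene Plk2 (1.78, adjusted p = 0.0256) were the positive ones. The AP-1 subunit gene Jund was at -2.57 (adjusted p = 0.00556), Srf at -2.28 (adjusted p = 0.00406) and Ier2 at -1.99 (adjusted p = 0.00816). Csrnp1, Klf2, Dusp2, Dusp5 and Zfp36 lay between -2.70 and -1.26. With the GC and length offset Dusp6 (adjusted p = 0.0451) and Zfp36l1 (0.00903) were still called and the other 9 were not, by edgeR.

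Among 20 genes of NF-kB subunits, inhibitors and regulators, 0 passed between the genotype labels with ACs by edgeR, 6 had an unadjusted p under 0.05, where 24.3% of all genes did, and the median was -0.33 beside -0.01 over all genes. In untreated macrophages 1 of 20 was called, where 11.6% of all genes were. Tnip3, which encodes an A20-binding inhibitor of NF-kB, was lower under the label HDAC3-/- (6.48 ± 3.11 against 20.5 ± 1.26 CPM, log2FC -1.81, adjusted p = 0.0301, edgeR). With NACs against untreated, 1 of 20 was called in HDAC3-/- and 2 of 20 in HDAC3 f/f macrophages, where 6.54% and 8.52% of all genes were. Birc3 was higher in HDAC3-/- macrophages (25.6 ± 1.66 against 9.82 ± 1.22 CPM, 1.57, adjusted p = 0.0382, edgeR), and in HDAC3 f/f macrophages the subunit gene Rela rose (1.27, adjusted p = 0.0396, edgeR) and the deubiquitinase gene Cyld fell (-1.35, adjusted p = 0.0407, edgeR). The interaction with NACs against untreated called 11 of 20, 7 positive and 4 negative, where 34.8% of all genes passed, among them Birc3 (2.80, adjusted p = 0.00206), Tnip3 (2.73, adjusted p = 0.00515), Cyld (2.69, adjusted p = 0.00354) and Rela (-2.00, adjusted p = 0.00739), by edgeR. With the GC and length offset Birc3 alone of the 11 was still called (1.51, adjusted p = 0.0384, edgeR).

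Of 10 NF-kB target cytokines and effectors, the chemokine gene Cxcl2 fell in HDAC3-/- macrophages with ACs against NACs, from 8.53 ± 2.55 to 1.36 ± 0.597 CPM (log2FC -2.61, adjusted p = 0.00229, edgeR). It was called with the GC and length offset too (adjusted p = 0.0134, edgeR), and not without HDAC3-/- ACs replicate 1 (adjusted p = 0.106, edgeR). It was the only one called of the 8 target genes tested there, where 7.38% of all genes were called. In HDAC3 f/f macrophages with NACs, Cxcl2 fell from 7.02 ± 3.97 to 2.70 ± 0.866 CPM (-1.46, adjusted p = 0.0439, edgeR) and the interleukin gene Il1b from 2.59 ± 2.04 to 0.545 ± 0.226 CPM (-2.32, adjusted p = 0.0332, edgeR), and DESeq2 gave neither of them an adjusted p. They were 2 of 8 target genes tested, where 8.52% of all genes were called. Both were called in the interaction, Cxcl2 at 3.72 (adjusted p = 0.00210) and Il1b at 3.97 (adjusted p = 0.00674), by edgeR, 2 of 8 tested, where 34.8% of all genes passed. With the GC and length offset Cxcl2 alone was called (2.76, adjusted p = 0.0267, edgeR).

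With that offset no gene at all was called between genotypes in untreated macrophages or for NACs against untreated under either label, so each call of these 3 lists there ended with it. The value of Zfp36l1 with NACs in HDAC3 f/f macrophages was further from 0 with the offset (-2.19, adjusted p = 0.153, edgeR), and those of the other genes called there were nearer to 0. Leaving out single libraries ended most of them as well. Without HDAC3-/- untreated replicate 1 the calls of Srf, Ier2, Tnip3 and Birc3 held, and without any other library of their comparison they were lost. Klf4 stayed called only without HDAC3-/- ACs replicate 2. Of the interaction calls, Srf, Jund, Ier2, Csrnp1, Klf2, Zfp36l1, Birc3, Tnip3, Cyld, Rela, Cxcl2 and Il1b held without any single library, and each of the others was lost without at least 1.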

How the data were processed

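Reads were trimmed, aligned and counted on genes by the authors. The submitters' processing notes name Trimmomatic 0.36, STAR 2.5.2b, featureCounts of Subread 1.5.2 and GRCm38. The strand setting is not given in the sources used here. The deposited values are raw counts per gene and library, without normalization. Of 49315 gene identifiers, 49056 had a symbol in GENCODE M21 and 44858 its start and end. The 10 members and all lists were chosen with earlier results of these data known.

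Only the libraries of a comparison entered its fit, made with edgeR 4.0.16 in R 4.3.3: filterByExpr (minimum count 10, minimum total 15), TMM scaling, robust quasi-likelihood test, Benjamini-Hochberg adjustment over all genes tested, threshold 0.05. Interactions used 12 libraries. Called means an adjusted p under 0.05, and apart means that the groups' CPM do not overlap. Members were named in a comparison where the unadjusted p was under 0.05 or the groups were apart, and the 5 most similar genes by Pearson r. The test was run on simulated counts for the genotype comparison with ACs and the interaction of genotype with ACs against NACs. Those counts held no GC or length slope, so they cannot show how the test does where libraries differ in these slopes.

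Alternatives were scaling with DESeq2's size factors or by library totals, the Wald test in DESeq2 1.42.0 (the authors' test), other filters (none, or 10 counts per library throughout), a single fit over 18 libraries, the replicate number as a block, a correction for GC content and length (offset from mgcv 1.9.3) with and without that block, and each library left out. The labels do not tie replicate numbers to animals across groups, and p-values measure the spread between these libraries. Total counts ranged from 4704491 to 26421267, and counts give no error beyond counting.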

Additional observations from a re-analysis of the deposited data

Results flagged for a closer look

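The NACs difference was not of equal size under the genotype labels for 4 members, by a test of the difference itself (the interaction in edgeR, on 12 libraries, BH-adjusted). It was -2.81 for Fosb, -2.11 for Junb, -2.00 for Egr1 and 2.79 for Tnfaip3 on the log2 scale, with adjusted p of 0.0159, 0.00443, 0.0307 and 0.00432. Over all genes 34.8% passed the same test. Corrected for GC content and length, the adjusted p of these genes lay between 0.0826 and 0.408. With scaling by library totals Fosb (-2.17, adjusted p = 0.0688) and Egr1 (-1.33, adjusted p = 0.198) were lost, by edgeR. With single libraries left out in turn, Junb and Tnfaip3 stayed called, Fosb was lost without HDAC3-/- NACs replicate 1 (0.0515), and Egr1 was lost on leaving out any of 4 libraries (0.0519 to 0.0868), by edgeR. With 3 libraries in a group, no test for a single outlying value within a group was made.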

How the results depend on the processing

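For single genes, 39 differences were recomputed in 639 alternatives, of which 525 kept direction and side of the threshold, 34 passed it anew, 76 no longer passed it and 4 changed sign. The sign changes were all Junb with the GC and length offset, at -0.046 for NACs against untreated and -0.41 for ACs against untreated in HDAC3 f/f macrophages, and with that offset and the replicate block, at -0.002166 and -0.36. The number of members called between genotype labels, 1 in untreated macrophages (Junb), was also 1 with library totals, but there it was Tnfaip3, and it was 0 with the replicate block, 0 with the offset and 0 with both. With NACs it was 0, and 1 with size factors of DESeq2, 2 with DESeq2, 1 with no filter and 1 with 10 counts in every library. With ACs it was 1 (Egr2), and 4 with DESeq2 and 3 with the offset, where 461, 1365 and 1238 of all genes were called. In the single fit of all 18 libraries it was 1, Atf3 (adjusted p = 0.0451, edgeR) in place of Egr2. With offset and replicate block it was 1, Junb (adjusted p = 0.0373, edgeR) and no longer Egr2 (0.0576, edgeR). For NACs against untreated in HDAC3 f/f macrophages it was 2 (Fosb and Tnfaip3), also 2 with DESeq2 (Junb and Tnfaip3), and 0 with library totals, 1 with no filter, 1 with 10 counts in every library, 0 with all 18 libraries, 0 with the offset and 0 with offset and replicate block. In HDAC3-/- macrophages it was 1 (Junb), also 1 with library totals (Tnfaip3), and 0 with size factors of DESeq2, 2 with DESeq2, 2 with no filter, 2 with all 18 libraries, 0 with the replicate block, 0 with the offset and 0 with both. For ACs against NACs in HDAC3-/- macrophages it was 3, and 1 with library totals, 1 with all 18 libraries, 1 with the offset, and 2 (without Jun) with size factors of DESeq2 or with offset and replicate block, while with no filter the 3 held Fosb in place of Jun. For the interaction of genotype with NACs against untreated it was 4, and 1 with the offset, 0 with offset and replicate block, 3 with library totals (Fos in place of Fosb and Egr1) and 3 with 10 counts in every library, where Fosb was not tested. For that with ACs against NACs it was 0, and 2 with DESeq2, 3 with no filter and 1 with the offset. Over all genes, the alternatives that kept every library called 0 to 3308 (untreated), 0 to 575 (NACs) and 324 to 1365 (ACs) between genotypes. For NACs against untreated they called 0 to 1784 (HDAC3 f/f) and 0 to 2112 (HDAC3-/-), and for ACs against NACs in HDAC3-/- 252 to 1400. These 2 interactions had 718 to 5560 and 3 to 741. With 1 library left out the counts of members ran from 0 to 3 (untreated), 0 to 3 (NACs) and 0 to 2 (ACs) between genotypes, from 0 to 3 and 0 to 2 for NACs against untreated, from 0 to 4 for ACs against NACs in HDAC3-/-, from 2 to 4 for the first interaction and from 0 to 2 for the second. Calls over all genes in these fits ran from 0 to 5887, 0 to 3121 and 0 to 1693 between genotypes. They ran from 21 to 4232 and 0 to 4441 for NACs against untreated, and from 0 to 3013 for ACs against NACs in HDAC3-/-. The first interaction had 3043 to 6297 and the second 0 to 826. The cause was not tested. Whether equal replicate numbers mark paired libraries is not known, and in no pair of groups compared directly did all same-numbered libraries correlate above 0.1. HDAC3 f/f ACs and HDAC3-/- NACs libraries were not compared directly but enter the same interaction. Between these groups r was 0.486, 0.177 and 0.296 for replicates 1, 2 and 3. The replicate block ended the call of Junb between genotypes in untreated macrophages (adjusted p = 0.0562, edgeR) and in HDAC3-/- macrophages with NACs (adjusted p = 0.0976, edgeR).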

Other observations

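Egr2 and Nfkbia ran in opposite orders over the HDAC3-/- untreated libraries. Replicate 1 had 476.4 CPM of Nfkbia and 0.755 CPM of Egr2, replicate 2 had 79.0 and 22 CPM, and replicate 3 had 241.8 and 6.37 CPM. These values belong to 1 group of 3 libraries and carry no test. Tmem206, the gene whose level followed the members' mean most closely, lies on chromosome 1 from 191325912 to 191350914, on the same chromosome as Atf3 (191170296 to 191218039).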
